A study of Mus musculus with 12 samples.

Results

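Genes of the F-box (Fbxl, Fbxo, Fbxw), Kelch-like (Klhl), tripartite motif (Trim) and ubiquitin-specific protease (Usp) families were followed in NIH-3T3 cells, a mouse fibroblast line of wild-type genotype, through a SLAM-seq labelling course. The members were picked by gene symbol and selected on their mean read count over the 12 libraries, which had to be at least 100. Of 184 genes with such symbols, 118 met this minimum, out of 9065 genes that met it and 17419 genes in all. They comprised 10 of 19 Fbxl genes, 22 of 30 Fbxo genes, 8 of 9 Fbxw genes, 15 of 26 Klhl genes, 22 of 50 Trim genes and 41 of 50 Usp genes. The mean counts just inside the minimum were 103 for Fbxw9, 105 for Fbxw17 and 108 for Fbxo46, and just outside it lay Fbxl15 with 99.1, Fbxl12 with 94.5 and Fbxo32 with 93.6. All 118 members are annotated as protein-coding in GENCODE M21.

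Cells were exposed to 800 µM 4-thiouridine (4sU) for 15, 30, 60, 90 or 120 min, or to none (no4sU), with 2 libraries per group, replicates A and B, and the design varied only the duration of the exposure. This uridine analogue enters RNA during transcription. After iodoacetamide treatment an incorporated 4sU is read as C in place of T, so RNA made since 4sU was added can be told from older RNA. The new-to-total ratio (NTR) is the estimated fraction of a gene's RNA that is new. The line is a single established fibroblast line, and nothing in the labels says whether replicates A and B were separate cultures, so the p-values measure the spread between these libraries only, which may be technical.

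Ubiquitin is passed from an E1 activating enzyme to an E2 conjugating enzyme and then, with the help of an E3 ligase, to a substrate, where chains of ubiquitin often mark the protein for the proteasome. F-box proteins are the exchangeable substrate receptors of SCF ligases, which are built on Cul1 and Skp1. Klhl proteins bring substrates to Cul3, most Trim proteins act as ligases through a RING domain of their own, and Usp proteins are cysteine proteases that remove ubiquitin. Some members depart from their family's name: Usp6nl is a GTPase-activating protein for Rab proteins and no deubiquitinase, Usp39 is a splicing factor without protease activity, and Trim16 and Trim44 lack the RING domain.

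The libraries held 9917026 to 13739380 reads, and the members took 0.688% to 0.797% of them. The 10 fibroblast markers summed to between 16027 and 19743 CPM (reads scaled to a common library total) per library. The 2 epithelial, 3 endothelial and 3 immune markers present in the table reached at most 0.582, 1.70 and 6.91 CPM in sum. Of these, the lysozyme gene Lyz2 and the endothelial receptor Kdr had a median of 0 CPM. Most of the immune and endothelial sums came from Cd68, with a median of 5.43 CPM, and Cdh5, with 1.28 CPM. The library totals behind CPM were scaled by the trimmed mean of M-values (TMM), so every level is relative to the rest of the library. In bulk RNA, fewer cells of a kind and less RNA per cell cannot be told apart. The unlabelled replicate A stood apart from replicate B: the members' A-to-B differences spread with an SD of 0.21 on the log2 scale, against 0.10 to 0.12 in the labelled groups, and went with transcript length (Spearman's rho -0.53 over 118 genes of the same 2 libraries). The members' median length was 4284 bases, against 3596 for all genes with the same minimum count.

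From 60 min on, members held more new RNA at the median than all genes with the same minimum count. The median NTR of the 118 members was 0.00985 after 15 min, 0.0724 after 30 min, 0.231 after 60 min, 0.377 after 90 min and 0.530 after 120 min, with an SD over the 2 libraries of at most 0.0201 from 30 min on. The same medians over the 9065 genes were 0.0101, 0.0521, 0.155, 0.244 and 0.354. At 15 min the 2 libraries themselves differed, with member medians of 0.0130 and 0.00670 beside 0.0134 and 0.00670 over all genes. At each later time the members' median was the higher one in both replicates. With a minimum mean count of 1000, which 23 members and 2700 genes met, the medians were 0.0428 and 0.0418 after 30 min, with the members higher in 1 of 2 replicates, so the gap at that time depended on the minimum. With the same minimum they were 0.171 and 0.119 after 60 min and 0.419 and 0.267 after 120 min, with the members higher in both replicates.

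**Figure D1:**
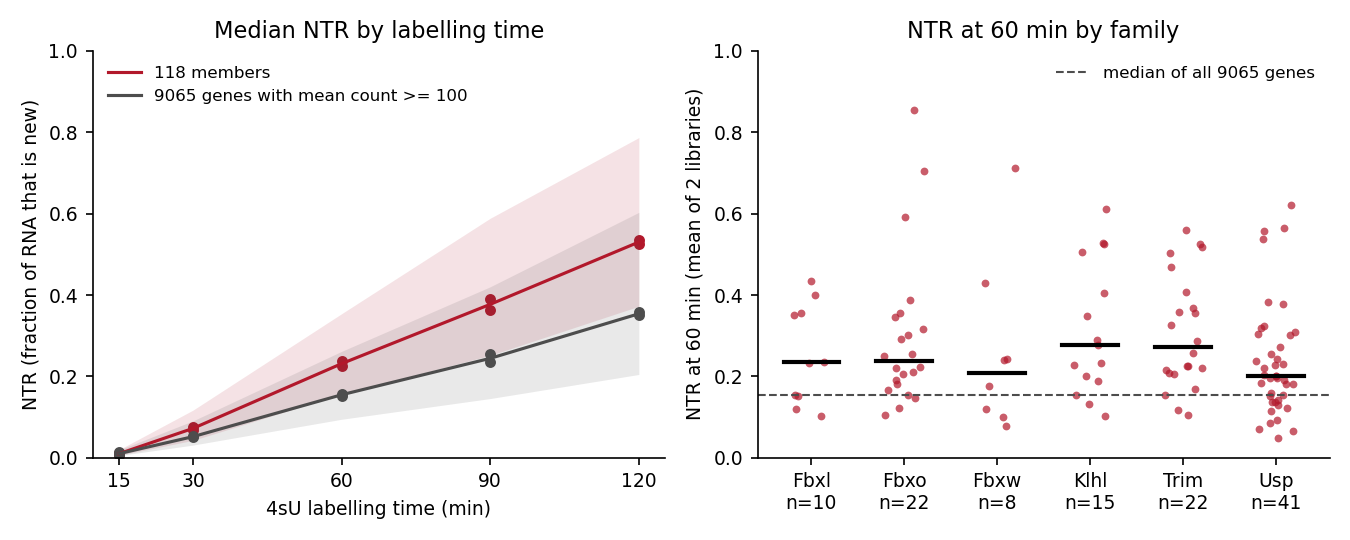
Left: median NTR (fraction of RNA that is new) against 4sU time in min, with a point per library, a line through the mean of both libraries and shading over the middle 50% of genes, for the 118 members and for 9065 genes. Right: NTR at 60 min of each member by family, with a bar at the family median and a dashed line at 0.155, the median of all genes; the member medians rose to 0.530 at 120 min and the family medians at 60 min all lay above the dashed line.

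Each NTR comes with a 90% interval from its model, which allows a reading gene by gene. At 60 min that interval lay wholly above the all-gene median in both libraries for 63 of 118 members (53.4%), against 34.1% of all genes. It lay wholly below for 12 members (10.2%), against 30.2%. At 120 min it lay above for 79 members (66.9%, all genes 41.1%) and below for 18 (15.3%, all genes 40.5%). These intervals cover the error of the NTR model and not the spread between cultures.

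Expressed as the half-life that a steady level and simple decay would give, the members' median was 158 ± 6.02 min (SD, n = 2 libraries) after 60 min, over all 118 members, and 118 ± 0.0238 min after 120 min, over the 111 members per library with an NTR of at most 0.99. The corresponding medians of all genes were 247 ± 7.16 and 198 ± 5.41 min. The value depended on when it was read, with a members' median of 275 min after 30 min, over 118 and 116 members, so it is called apparent here and compared only within a time. After 15 min only 74 and 47 members reached the NTR of 0.01 that a half-life needed, and no median is given for that time.

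The families overlapped broadly in NTR at 60 min. The medians were 0.234 for Fbxl, 0.238 for Fbxo, 0.208 for Fbxw, 0.277 for Klhl, 0.272 for Trim and 0.200 for Usp. Within families the spread was far larger than between their medians, for example from 0.0794 for Fbxw5 to 0.712 for Fbxw7, and from 0.0493 for Usp50 to 0.622 for Usp53. No test was made between families.

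Among the F-box receptors were the members with the most new RNA. Fbxo5 (Emi1, ENSMUSG00000019773, chromosome 10, 5799160 to 5805600 of GRCm38, minus strand, like all positions here from GENCODE M21) inhibits the anaphase-promoting complex, another ubiquitin ligase, during the cell cycle. Its NTR was 0.370 and 0.381 after 30 min, 0.813 and 0.893 after 60 min, and 1.00 in all 4 libraries of 90 and 120 min, the highest of all members after 60 min. The apparent half-life at 60 min was 21.7 ± 4.39 min (SD, n = 2). Fbxw7 (chromosome 3, 84815268 to 84979198, plus strand), the receptor for cyclin E, Myc and Notch, had an NTR of 0.688 and 0.736 at 60 min and an apparent half-life of 33.5 ± 3.15 min. Its relative Fbxw5, a receptor linked to centrosome duplication, reached 0.0910 and 0.0677, with an apparent half-life of 515 ± 111 min. The 2 Fbxw genes did not overlap at any time from 30 min on. Fbxo46 had NTRs of 0.704 and 0.705, but with a mean count of 108 its 90% interval in replicate A ran from 0.541 to 0.850.

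Klhl25, a Cul3 adaptor for the translation inhibitor 4E-BP1, stood highest of its family at 60 min with 0.655 and 0.569, again on few reads (mean count 119). Klhl21, a Cul3 adaptor of dividing cells that acts on Aurora B, had 0.495 and 0.562 with a mean count of 923, and an apparent half-life of 55.6 ± 7.52 min. Klhl9, which works with Klhl13 on the same substrate, had 0.383 and 0.429. Klhl22 was slower, with 0.177 and 0.202. Klhl12, an adaptor for the coat protein Sec31, had 0.317 and 0.260, and Klhl20 had 0.279 and 0.189, so these 2 genes overlapped.

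In the Trim family the highest values were those of Trim59, a membrane-anchored member, with 0.519 and 0.598 at 60 min and an apparent half-life of 51.2 ± 7.97 min. Trim25, a ligase for the RNA sensor RIG-I, had 0.314 and 0.337, and Trim27 had 0.305 and 0.267. Trim28 (KAP1), the corepressor of KRAB zinc finger proteins, was the most abundant member per length, at 164 CPM per kb on average over the 12 libraries. Its NTR at 60 min was 0.139 and 0.171, near the all-gene median of 0.155. Next in abundance came Usp5 with 69.9, Usp1 with 61.1 and Trim35 with 55.2 CPM per kb, while the median member had 9.90 and the lowest, Fbxl20, had 1.92 CPM per kb.

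Fast and slow members were both found among the Usp genes. Usp53, a tight-junction-associated member (ENSMUSG00000039701, chromosome 3, 122931493 to 122984510, minus strand), had an NTR of 0.608 and 0.637 after 60 min and 0.996 and 1.00 after 120 min, with an apparent half-life of 42.7 ± 2.38 min. Usp2, which stabilises cyclin D1, had 0.455 and 0.618 at 60 min. Usp5, the enzyme that takes apart free ubiquitin chains, had only 0.0740 and 0.0697 after 60 min and 0.206 and 0.203 after 120 min, an apparent half-life of 558 ± 24.5 min after 60 min. Usp8, a deubiquitinase of endosomes, had 0.0935 and 0.0800, and Usp14, which sits on the proteasome, had 0.120 and 0.111. Usp11 (0.107 and 0.0232) and Usp50 (0.0392 and 0.0594) were the lowest of the slow members along with Usp5, but the 2 libraries of Usp11 disagreed by more than their distance to Usp5. Usp15 (0.135 and 0.141), Usp9x (0.132 and 0.130), Usp39 (0.173 and 0.145) and Usp7 (0.178 and 0.205) lay near the all-gene median.

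Sites for AU-rich element binding proteins are a textbook feature of short-lived mRNAs. The nonamer TTATTTATT (T stands for the U of the RNA) was searched on the sense strand of the 3′ UTR of each gene's longest protein-coding GENCODE M21 transcript, overlapping matches included, and was present in 12 of 118 members (10.2%) and in 8.46% of 8934 genes with a 3′ UTR. The 3 matches of Usp53, named by their base in its 3′ UTR of 2229 bases, the Usp gene with the highest NTR at 60 min among the members and the member with the most matches along with Usp31, are shown 5′ to 3′ with the nonamer in capitals and 10 bases on each side. On GRCm38 they lie in the last exon, minus strand, at chr3:122933066-122933094, chr3:122932830-122932858 and chr3:122932770-122932798.
Usp53, site at 638: tggtagtataTTATTTATTaaattatttt
Usp53, site at 874: aaatgtccttTTATTTATTtttttcactt
Usp53, site at 934: ggagtagagtTTATTTATTtaatattttt

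Members with the nonamer had a median NTR at 60 min of 0.225 and members without it 0.229, a gap that was not tested. Over all genes the medians were 0.223 with and 0.150 without it. Usp31, with 3 matches in a 3′ UTR of 6163 bases, had an NTR of 0.356 and 0.400, and Usp15, with 1 match, had 0.135 and 0.141. Fbxo5, Fbxw7, Fbxo46 and Klhl25, which with Usp53 had the highest NTRs at 60 min among the members, had 0 matches. The 3′ UTRs of members were longer at the median, with 1659 bases against 1251. The absence of a match says only that these letters are not in the transcript used.

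Read counts of the members fell over the course, mostly after 60 min. Summed over the 118 members, the level was 7806 and 7813 CPM after 15 min, 7747 and 7781 after 30 min, 7720 and 7650 after 60 min, 7519 and 7435 after 90 min, and 7127 and 7060 after 120 min. Each time from 30 min on lay below the one before it in both libraries. The unlabelled libraries had 7320 and 7839 CPM and so spanned most of that range. Contrasts were tested by quasi-likelihood F tests in edgeR, fitted to 11564 genes in all 12 libraries, with Benjamini-Hochberg adjustment over all genes tested and a threshold of 0.05 on the adjusted p; all 118 members were tested.

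At 30 against 15 min, edgeR called 0 members, as it called 0.0% of all genes, with 1 member and 249 genes (2.15%) at an unadjusted p below 0.05, and DESeq2 called 0 members. At 60 against 15 min it also called 0 members, beside 0.0346% of all genes, with 10 members (8.47%) at an unadjusted p below 0.05, beside 6.19% of all genes, and DESeq2 called 0. Without the unlabelled replicate A, 3 members (2.54%) fell at 60 min, beside 0.751% of all genes, and without replicate B, 2 (1.69%) fell, beside 0.701%.

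At 90 against 15 min, 6 of 118 members (5.08%) fell and 0 rose, beside 1.01% of all genes lower and 0.0519% higher. They were Usp2, Usp49, Fbxo28, Usp38, Trim59 and Fbxo11. The largest of these were Usp2, with a log2 change of -0.52 (edgeR adjusted p = 0.0314), and Trim59, with -0.51 (edgeR adjusted p = 0.00162). The count was 22 (18.6%) without the unlabelled replicate A and 21 (17.8%) without B, beside 5.93% and 5.64% of all genes lower. It was 0 without the 15-min replicate A or the 90-min replicate B, beside 0.0513% and 0.0684% of all genes lower, and 1 (0.847%) without the 15-min replicate B or the 90-min replicate A, beside 0.137% and 0.120%.

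At 120 against 15 min, 35 of 118 members (29.7%) fell, beside 11.3% of all genes, and 1 member, Usp5, rose, beside 7.93% of all genes. Of the 118 members, 91 had a negative log2 change, with a median of -0.13 against 0.01 over all genes tested. The falls were modest: the largest was 40.6% for Usp2 and the smallest 12.1% for Usp47. By family, 9 of 22 Fbxo, 15 of 41 Usp, 6 of 22 Trim, 2 of 10 Fbxl, 2 of 15 Klhl and 1 of 8 Fbxw genes fell, with median log2 changes of -0.18, -0.16, -0.14, -0.09, -0.11 and 0.06 in that order. Differences between families were not tested.

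**Figure D2:**
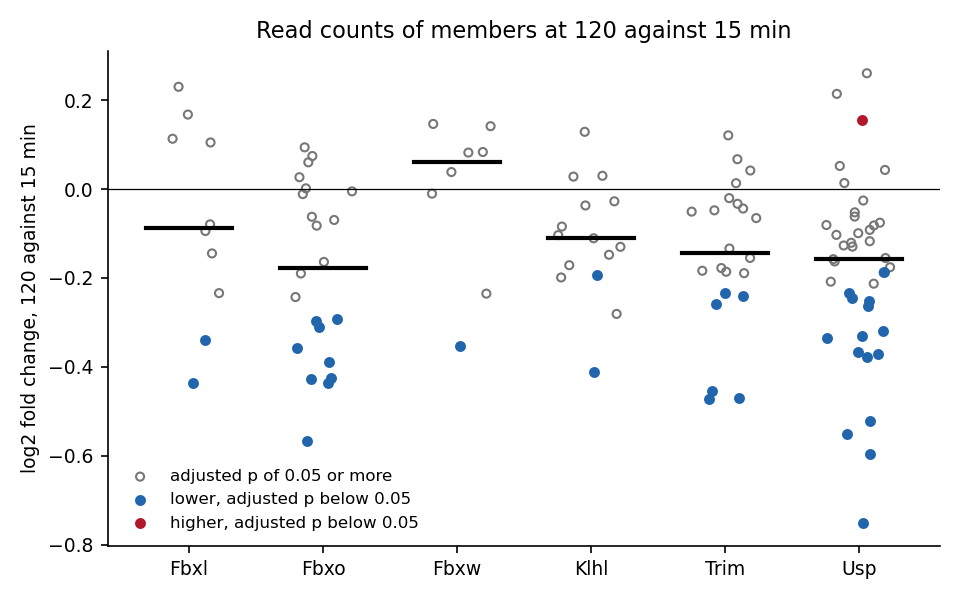
Log2 fold change at 120 against 15 min (vertical axis) of each member by family, with filled points for members past the edgeR threshold (blue lower, red higher), open points for the others and a bar at the family median. The 35 filled blue points reach down to -0.75 (Usp2), and the single red point is Usp5 at 0.15.

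The deubiquitinases held the 2 largest falls. Usp2 (ENSMUSG00000032010, chromosome 9, 44067021 to 44095627, plus strand) had 18.1 and 20.9 CPM without 4sU, 20.5 and 22.8 after 15 min, 19.9 and 20.3 after 30 min, 17.8 and 18.2 after 60 min, 14.3 and 15.8 after 90 min, and 13.2 and 12.5 after 120 min. The libraries of 90 and 120 min were below all others. The log2 change at 120 against 15 min was -0.75 (SE 0.112, edgeR adjusted p = 0.000223). For Usp49, a deubiquitinase of histone H2B, the levels were 34.5 and 37.5 CPM after 15 min and 23.9 and 23.8 after 120 min (log2 change -0.60, SE 0.0869, edgeR adjusted p = 0.000191). Of its 8581 exonic bases, 4392 also belong to Gm20517 on the same strand in GENCODE M21, so how reads were divided between these 2 genes bears on its value. Antisense exons share 1174 bases with Usp38 and 400 bases with Usp2, and whether counting used strand is not stated in the labels.

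Usp53 had 65.0 and 88.3 CPM without 4sU, 83.4 and 88.0 after 15 min, 80.7 and 86.3 after 30 min, 70.6 and 77.2 after 60 min, 66.4 and 64.0 after 90 min, and 57.6 and 59.2 after 120 min. The labelled libraries went down from 60 min on without overlap, and the 2 unlabelled ones lay far apart. The log2 change at 120 against 15 min was -0.55 (SE 0.0986, edgeR adjusted p = 0.000922). Usp38 went from 46.7 and 43.8 CPM to 29.4 and 33.5 CPM (log2 change -0.52, edgeR adjusted p = 0.00111).

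Other deubiquitinases had smaller log2 changes, most of them negative. Usp7, which acts on Mdm2 and p53, had 246 and 251 CPM at 15 min and 209 in both libraries of 120 min, a log2 change of -0.25 (SE 0.0585, edgeR adjusted p = 0.00570). Usp10 (log2 change -0.23, edgeR adjusted p = 0.0114) and Usp28, a stabiliser of Myc (log2 change -0.34, edgeR adjusted p = 0.0189), also fell. A further 6 Usp genes had falls of 15.6% to 23.0%: Usp36, a nucleolar deubiquitinase, and Usp32, Usp42, Usp37, Usp33 and Usp54. Of these, Usp42, Usp37, Usp33 and Usp54 missed the threshold when any of the 4 libraries compared was left out. Usp6nl, named with the proteases but no protease, fell by 22.5%. Usp1, which acts on FANCD2 and PCNA, had a log2 change of -0.13, Usp9x -0.16, Usp15 -0.10, Usp22, a subunit of the SAGA complex, -0.18, Usp14 -0.06 and Usp39 -0.08; none of these 6 passed the threshold (lowest edgeR adjusted p 0.138). Of the 6, Usp1 and Usp9x passed when an unlabelled library was left out. For Usp1 the edgeR adjusted p was 0.234 with all libraries, 0.0199 without replicate A and 0.0253 without replicate B, at the same log2 change of -0.13. For Usp9x the unlabelled replicates lay apart, at 258 and 349 CPM. Without replicate A its log2 change at 120 against 15 min was -0.17 with an edgeR adjusted p of 0.000777, and without replicate B -0.16 with 0.00118.

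The single rise was that of Usp5 (chromosome 6, 124815019 to 124829484, minus strand). It had 232 and 218 CPM without 4sU, 213 and 217 after 15 min, 211 and 217 after 30 min, 228 and 222 after 60 min, 232 and 228 after 90 min, and 244 and 234 after 120 min. The libraries of 60 min and later all lay above those of 15 and 30 min. The log2 change at 120 against 15 min was 0.15 (SE 0.0534, edgeR adjusted p = 0.0480), and it missed the threshold when any of the 4 libraries compared was left out.

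Among F-box receptors the largest fall was that of Fbxo28 (ENSMUSG00000047539, chromosome 1, 182313102 to 182341629, minus strand). Its levels were 60.9 and 59.7 CPM without 4sU, 62.2 and 62.8 after 15 min, 61.7 and 62.6 after 30 min, 57.6 and 57.1 after 60 min, 50.5 and 47.2 after 90 min, and 45.8 and 39.0 after 120 min. The first 6 libraries lay within 59.7 to 62.8 CPM and all later ones below them. The log2 change at 120 against 15 min was -0.57 (SE 0.0776, edgeR adjusted p = 0.000116). Fbxo5 had 65.8 and 65.0 CPM after 15 min and 49.6 and 50.2 after 120 min, a log2 change of -0.39 (SE 0.0766, edgeR adjusted p = 0.00186). Fbxo11, a receptor for the repressor Bcl6, went from 115 and 121 to 89.0 and 86.4 CPM, with a log2 change of -0.43 (edgeR adjusted p = 0.000326). Fbxo30 (-0.44) and Fbxo42 (-0.42), a receptor linked to p53, fell by a like amount on the log2 scale. Fbxo33, Fbxo45, Fbxo34 and Fbxo38 fell by 18.4% to 21.9%. Of these, Fbxo45, Fbxo34 and Fbxo38 missed the threshold when any of the 4 libraries compared was left out.

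Fbxl5, the iron-sensing receptor for the iron regulatory protein IRP2, had 42.4 and 51.1 CPM without 4sU, 41.8 and 48.6 after 15 min, 46.7 and 49.8 after 30 min, 45.5 and 44.2 after 60 min, 38.8 and 39.5 after 90 min, and 34.2 and 32.7 after 120 min. Its replicates differed more at 15 min than at any later time, and both libraries of 120 min were below all others. The log2 change at 120 against 15 min was -0.44 (SE 0.0954, edgeR adjusted p = 0.00378). Fbxw11 (beta-TrCP2), a receptor for phosphorylated beta-catenin and IkappaB, was the one Fbxw gene to fall, by 21.7% (edgeR adjusted p = 0.000850). Fbxw7, with NTRs far above that of Fbxw11, had 19.3 and 14.8 CPM after 15 min and 14.6 and 14.4 after 120 min; its log2 change of -0.24 (SE 0.124) did not pass the threshold (edgeR adjusted p = 0.190).

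**Figure D3:**
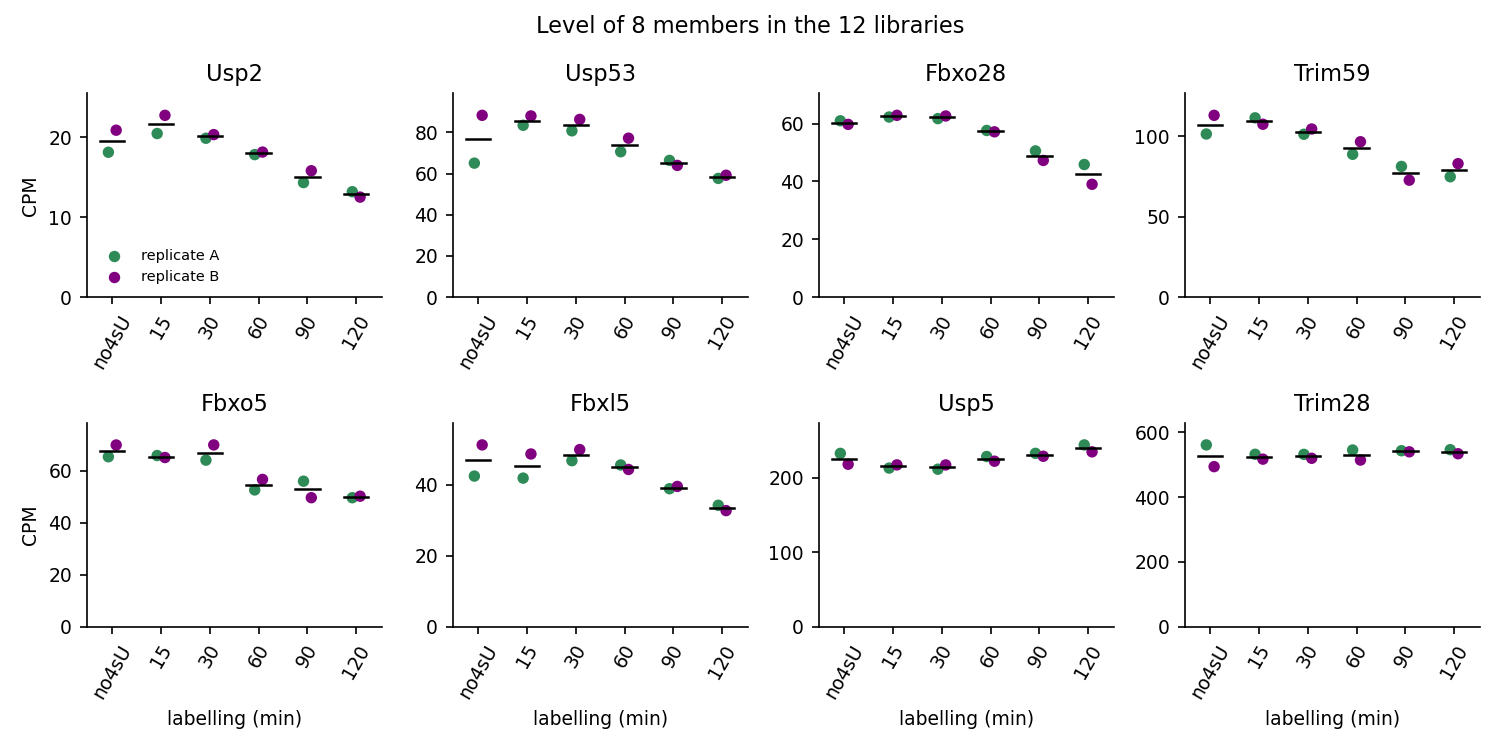
CPM (vertical axes, from 0) of 8 members in the 12 libraries by 4sU time in min, with a point per library (green replicate A, purple replicate B) and a bar at the mean of each group. Usp2, Usp53, Fbxo28, Trim59, Fbxo5 and Fbxl5 are lower at 120 than at 15 min, Usp5 is slightly higher, and Trim28 stays between 494 and 561 CPM throughout.

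The 3 related chromatin regulators of the Trim family did not share a course. Trim24 had 55.8 and 59.4 CPM after 15 min, 52.5 and 51.4 after 90 min and 40.5 and 42.5 after 120 min, a log2 change at 120 against 15 min of -0.47 (SE 0.0745, edgeR adjusted p = 0.000374). Trim33, a ligase for Smad4, had 75.6 and 75.3 CPM after 15 min and 52.7 and 57.2 after 120 min (log2 change -0.46, SE 0.0848, edgeR adjusted p = 0.00125). Trim28 had 532 and 517 CPM after 15 min and 546 and 534 after 120 min, a log2 change of 0.04 (SE 0.0565, edgeR adjusted p = 0.639). The gap between genes was not itself tested. Trim59 went from 111 and 107 CPM after 15 min to 81.2 and 72.7 after 90 min and 74.8 and 83.0 after 120 min, so its level after 90 min already overlapped that after 120 min. Trim35, Trim16 and Trim32 fell by 16.5%, 15.4% and 15.0%. Trim25 and Trim27 had log2 changes of -0.16 and -0.13 and did not pass the threshold. Trim25 passed when an unlabelled library was left out, with an edgeR adjusted p of 0.0377 without replicate A and 0.0421 without replicate B, against 0.111 with all libraries.

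Of the Cul3 adaptors, Klhl42 fell by 24.8% (edgeR adjusted p = 0.00680), from 35.1 and 31.0 CPM to 23.6 and 26.0 CPM. Klhl21 fell by 12.6% (edgeR adjusted p = 0.0407). Klhl12, with a log2 change of -0.28, Klhl20 with -0.15, Klhl9 with -0.10 and Klhl22 with 0.03 did not pass the threshold. Klhl25, which had the highest NTR of the family, had 10.8 and 12.3 CPM after 15 min and 10.8 and 10.4 after 120 min; at this level its SE was 0.131 and a change of the size of that of Klhl21 was not detectable.

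The number of calls at 120 against 15 min depended on each library. Calls are counted here in either direction, for members and for all genes alike. These shares are therefore not comparable with the separate shares lower and higher given above. Leaving out either 15-min library left 18 members (15.3%) past the threshold, beside 5.62% of all genes without replicate A and 8.86% without B. Leaving out the 120-min replicate A or B left 20 (16.9%) or 16 (13.6%), beside 8.70% and 6.03% of all genes, and leaving out either unlabelled library gave 46 (39.0%), beside 31.6% without A and 31.7% without B. Of the 36, 13 passed in each of these 4 fits (Fbxo5, Fbxo11, Fbxo28, Fbxo30, Fbxw11, Trim24, Trim33, Trim35, Trim59, Usp2, Usp38, Usp49 and Usp53) and 12 passed in none, Usp5, Usp28, Klhl21, Trim16 and Usp47 among them. All 36 kept their direction.

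Members with an NTR at 60 min of 0.25 or more had lower median log2 changes than those below it. Among the 23 members with an NTR at 60 min below 0.15, the median log2 change at 120 against 15 min was 0.04 and 1 fell. Among the 45 from 0.15 to 0.25 it was -0.08 and 7 fell, among the 28 from 0.25 to 0.4 it was -0.29 and 16 fell (57.1%), and among the 22 at 0.4 or more it was -0.21 and 11 fell (50.0%). All 9065 genes gave medians of 0.12, -0.06, -0.20 and -0.26 in these ranges, with 0.642%, 12.6%, 35.0% and 43.7% lower. Spearman's rho between the log2 change and the NTR was -0.64 over 118 members and -0.73 over 9065 genes; these are descriptions across genes of the same libraries, and genes are not independent replicates. The widest gap between members and all genes was in the range from 0.25 to 0.4, where the share that fell was larger among members, and it was not tested. Exceptions within the members were Fbxl18, with an NTR of 0.433 and a log2 change of 0.10 that did not pass the threshold, and Trim24, with an NTR of 0.205 and one of the largest falls.

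**Figure D4:**
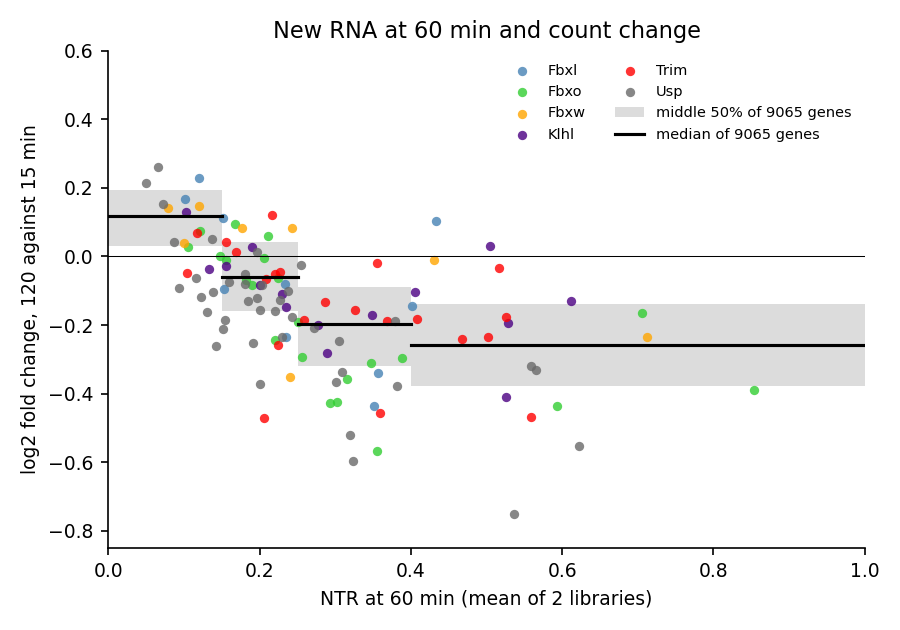
Log2 fold change at 120 against 15 min against NTR at 60 min (mean of 2 libraries) for the 118 members, coloured by family, over the median (black line) and middle 50% (grey) of 9065 genes in 4 NTR ranges. Members above an NTR of 0.25 lie mostly below 0, as all genes do there, with medians of -0.29 and -0.21.

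Splitting each level into a new and an older portion (CPM times NTR and the remainder) shows how far the early RNA was replaced. For Fbxo28 the older portion went from 61.1 CPM after 15 min to 37.0 after 60 min and 8.84 after 120 min, while the new portion rose from 1.39 to 20.4 and 33.6 CPM. For Usp5 the older portion went from 213 to 190 CPM and the new portion from 2.16 to 48.9 CPM. By 120 min most Fbxo28 RNA had therefore been made during labelling and most Usp5 RNA before it. Both portions carry the model error of the NTR.

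At 15 min against no4sU, edgeR called 0 members, as it called 0.0% of all genes, with 7 members and 618 genes (5.34%) at an unadjusted p below 0.05, and DESeq2 called 0 members. Without the unlabelled replicate B, 14 members were higher (11.9%) and 2 lower (1.69%), beside 7.67% and 3.76% of all genes. At 120 min against no4sU, 28 of 118 members (23.7%) fell, beside 8.78% of all genes, and 0 rose, beside 5.43%, with a median log2 change of -0.10 against 0.01 over all genes tested. The 8 largest falls past the threshold here had log2 changes of -0.61 (Usp2), -0.56 (Usp49), -0.51 (Fbxo28), -0.49 (Fbxl5), -0.44 (Trim59, Trim33 and Fbxo5) and -0.40 (Usp53). Against 15 min these 8 genes had -0.75, -0.60, -0.57, -0.44, -0.47, -0.46, -0.39 and -0.55 in that order, and the 2 comparisons share the 120-min libraries. Usp38, with -0.52 against 15 min, had -0.31 here. Klhl24, an adaptor for keratins, was past the threshold here (-0.36, edgeR adjusted p = 0.0145) and not against 15 min (-0.17, edgeR adjusted p = 0.224); it was chosen after its values were seen, and that difference was not tested.

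The unlabelled libraries weighed on this contrast. Without replicate A, 45 members (38.1%) fell and 4 (3.39%) rose, beside 16.0% and 14.2% of all genes. Without replicate B, 23 (19.5%) fell and 8 (6.78%) rose, beside 7.41% and 8.84%. Without the 120-min replicate A, 9 (7.63%) fell and 0 rose, beside 2.81% and 1.06% of all genes, and without its replicate B, 11 (9.32%) fell and 0 rose, beside 2.84% and 1.15%. Usp53 had a log2 change at 120 min against no4sU of -0.40 (edgeR adjusted p = 0.0106) with all libraries, -0.59 without replicate A and -0.15 without replicate B (edgeR adjusted p = 0.194). For Usp9x the sign itself depended on the library left out, with -0.21 (edgeR adjusted p = 0.000583) without replicate A and 0.23 (edgeR adjusted p = 0.000805) without replicate B. The part of transcript length in these differences was not tested.

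The other genes of the ubiquitin system were taken from lists by function. Of 203 tested, 48 (23.6%) fell and 12 (5.91%) rose at 120 against 15 min, beside 11.3% and 7.93% of all genes, with a median log2 change of -0.09 against 0.01 over all genes tested. Of 26 substrate receptors with other names 9 fell and 1 rose (median -0.19), of 81 other RING and HECT ligases 29 fell and 2 rose (median -0.17), and of 27 other deubiquitinases 7 fell and 0 rose (median -0.09). Among them Dtl, the receptor that targets Cdt1 in S phase, had a log2 change of -0.68 (edgeR adjusted p = 4.2e-05), Ccnf (cyclin F) one of -0.53 (edgeR adjusted p = 4.6e-05) and the ligase Siah1a one of -0.71 (edgeR adjusted p = 0.000341). The median NTR at 60 min of these 3 lists was 0.257, 0.216 and 0.224.

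The remaining lists hold the shared machinery of conjugation. Of 8 E1 genes, those of ubiquitin-like modifiers included, 2 rose and 0 fell, of 32 E2 genes 2 rose and 2 fell, of 25 genes of the cullin ligase core 3 rose and 1 fell, and of 4 ubiquitin genes 2 rose and 0 fell, with median log2 changes of -0.02, 0.02, 0.07 and 0.15 and median NTRs at 60 min of 0.115, 0.146, 0.109 and 0.140. The E1 Uba1 rose by 0.18 on the log2 scale (edgeR adjusted p = 0.0104), the core adaptor Ddb1 by 0.17 (edgeR adjusted p = 0.0115), and the ubiquitin fusion gene Rps27a by 0.23. The core gene that fell was Cul3, the scaffold of the Klhl proteins, with -0.24 (SE 0.0668, edgeR adjusted p = 0.0167). In lists of this size single genes move the shares, and neither the lists against all genes (11.3% lower, 7.93% higher) nor the differences between lists were tested.

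**Figure D5:**
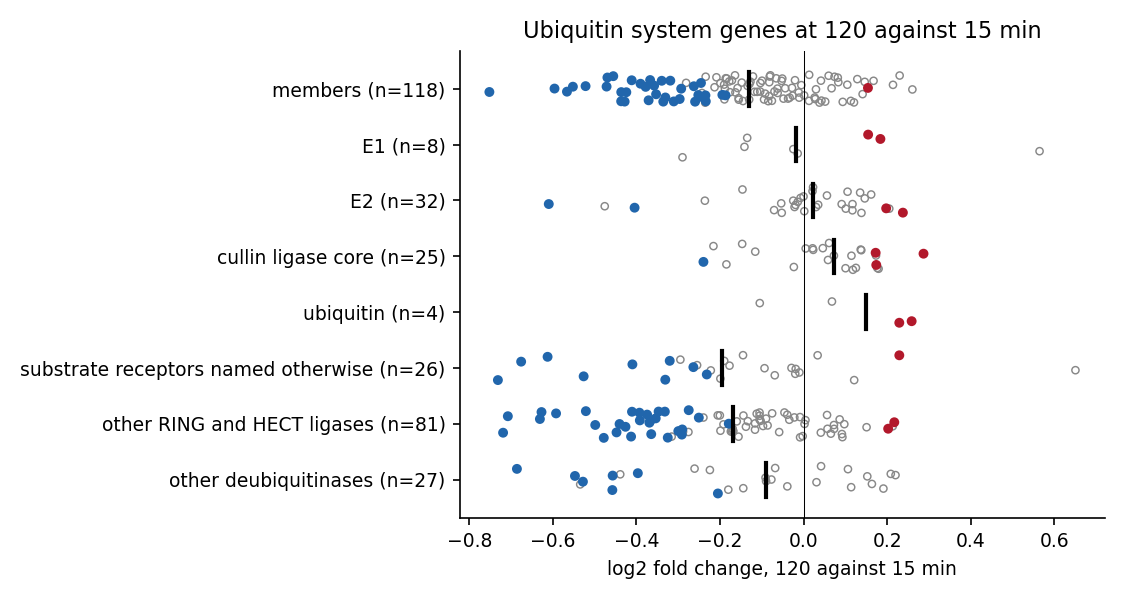
Log2 fold change at 120 against 15 min (horizontal axis) of the members and of 7 lists of other ubiquitin system genes, with a bar at each median and filled points for genes past the edgeR threshold (blue lower, red higher). Receptors, ligases and deubiquitinases hold most of the blue points, with medians from -0.19 to -0.09, and E2, cullin core and ubiquitin genes have medians from 0.02 to 0.15.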

How the data were processed

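The members and the gene lists were chosen with earlier results of these data known. Group and replicate came from the sample titles, and 0 columns of other samples were used. The authors deposited estimated counts per gene and library, not scaled between libraries; 20.4% of them (26.3% of the members') were not whole (tolerance 1e-06) and were rounded for the tests. The deposited NTR is a fraction from 0 to 1 per labelled library, given per the file headers as a posterior maximum (used here), a mean and 0.05 and 0.95 quantiles; the deposited alpha and beta, a score each, were not used. cutadapt, Bowtie2 2.3.0 and STAR 2.7.10b are named in the submitters' processing notes, without role or order; no counting tool, build or annotation is given in the sources used here. Reads split between similar genes carry an error that is in none of the errors given, and heavily converted reads can fail to align.

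The main test was edgeR 4.0.16 in R 4.3.3: filterByExpr (11564 genes), TMM (factors 0.970 to 1.02), a quasi-likelihood fit over all 12 libraries with no covariate (common biological coefficient of variation 4.44%), Benjamini-Hochberg adjustment over all genes and a threshold of 0.05. The SE is the absolute log2 change divided by the square root of F. The script was tested on simulated counts. Apparent half-life follows from exponential decay of the older share, 1 - NTR, over the 4sU time, for an NTR of 0.01 to 0.99. Named members were the largest falls and rises past the threshold without overlap between libraries, the highest and lowest NTR at 60 min, the highest CPM per kb of deposited length, and a fixed list. Of that list, Trim21 was not a member. Other members named in the text, Fbxl18, Trim35, Usp6nl and Usp31 among them, were not picked by these criteria. The values counted for named members under the alternatives are those of members that met these criteria. Coordinates, exons and 3′ UTRs are those of GENCODE M21 (GRCm38), matched by gene ID. With 2 libraries against 2 no permutation test can reach the threshold, and none was run. Alternatives were other scaling, no filter, DESeq2 1.42.0, a replicate block, fewer groups, each library left out, other count minimums and the posterior mean. A check of protein features was not run.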

Additional observations from a re-analysis of the deposited data

How the results depend on the processing

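The members' fall at 120 against 15 min kept its direction under all alternatives run, but the number of calls moved. For alternatives other than a library left out, no share of all genes called is given. Their counts therefore describe the fits and are not a result about the members. At 60 against 15 min the count of members called went from 0 to 3 with the labelled libraries only and 4 with the 2 groups only, and ranged from 0 to 3 with a library left out. At 90 against 15 min it went from 6 to 14 with library size alone, 11 with no filter on low counts, and 22 both with the labelled libraries only and with the 2 groups only, and ranged from 0 to 22 with a library left out. At 120 against 15 min the count of 36 ranged from 16 to 46 with a library left out, the highest when an unlabelled one was, and was 24 with DESeq2. At 15 min against no4sU it ranged from 0 to 16. At 120 min against no4sU the count of 28 was 43 with library size alone, 5 with the 2 groups only and 9 to 49 with a library left out.

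The median log2 change at 120 against 15 min was -0.19 with library size alone, which moved the median of all genes to -0.05, -0.15 for members with 200 reads or more, and -0.14 to -0.12 with a library left out. Against no4sU it was -0.17 with library size alone, -0.11 for a minimum of 50 and -0.14 to -0.10 with a library left out. With the posterior mean the members' median NTR was 0.0187 at 15 min and 0.0791 at 30 min. For members with a mean count of at least 1000 it was 0.0428, 0.171, 0.262 and 0.419 at 30, 60, 90 and 120 min; at 120 min a minimum of 50 gave 0.546 and one of 200 gave 0.542. The cause was not tested in any of these cases.

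Of 998 values for named members under the alternatives, 878 kept their side of the threshold, 95 were no longer past it, 24 newly passed it and 1 reversed. A change of sign was counted only where the gene was called in either fit. The 878 therefore include changes of sign in genes called in neither fit, such as Fbxo46 at 120 min against no4sU. Its log2 change was -0.28 with all libraries and 0.08 without the unlabelled replicate A. The 1 reversed value was that of Usp9x at 120 min against no4sU. Its log2 change ranged from -0.21 without the unlabelled replicate A to 0.23 without replicate B. Libraries of the same replicate letter shared no strong offset across groups. Over 15 pairs of groups the correlation of same-letter deviations ran from -0.13 to 0.15, above 0.1 in 3. These values cannot show whether same-letter libraries were handled together, which the labels do not say. With a replicate block the counts of members called were 0, 0, 7 and 36 at 30, 60, 90 and 120 against 15 min. They were 0 and 29 at 15 and 120 min against no4sU. The share of all genes called with the block is not given here.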
